A study of Caenorhabditis elegans with 51 samples.

Results

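Gene expression was followed across the early part of the last larval stage (L4) of wild type Caenorhabditis elegans, strain N2, by setting the 3 libraries of 4, 5 and 6 h after a move to warmth against the 3 libraries of 0, 1 and 2 h. These 6 libraries were taken from a series of 51 samples by their labelled strain and hour. The series compares wild type with animals that lower or alter XRN2, a nuclear ribonuclease encoded by xrn-2, and the time course holds 1 library per hour from 0 to 10 h for wild type and for the temperature-sensitive strain xrn-2(xe31). The animals of both strains grew for 59 h at 15 °C from the first larval stage to early L4, were moved to 26 °C and were harvested hourly until late L4. Whole-animal RNA (TRI Reagent, DNase-treated) went into polyA-selected TruSeq libraries. No hour has a second library within the time course, so the neighbouring hours of a window stand in for replicates. The p-values therefore measure only the spread between these libraries, which includes the trend within each window, and nothing in the labels says whether the hours came from separate cultures.

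Each larval stage of C. elegans ends in a molt, in which the epidermis makes a new collagen cuticle under the old one and sheds the old one. Molting genes are expressed in a fixed order within each stage, from a temporary precuticle matrix through successive groups of collagens to the enzymes that process and release the cuticle. During L4 the hermaphrodite also makes its sperm, begins to switch the gonad to oocytes, completes the vulva and prepares the adult cuticle and the yolk supply of the intestine.

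The deposited read counts per gene of the 6 libraries summed to between 41238235 and 56495625, over 17973 to 18858 genes with at least 1 count. Levels are given as CPM, the counts of a gene scaled to a fixed library total and further scaled by the TMM method of edgeR over the 11 wild-type libraries, except where wild type is set beside another strain. Across genes, the log2 levels of neighbouring hours correlated with r between 0.976 and 0.989, those of libraries within a window between 0.948 and 0.989, and those of libraries in different windows between 0.809 and 0.94; genes are not independent replicates and all libraries share 1 sequence of hours. The labelled stage was set against markers of other stages. The 10 early zygotic genes of the embryo summed to between 0.2 and 0.622 CPM in each of the 6 libraries and none passed the filter on low counts. The 9 genes of male sensory neurons summed to between 6.44 and 12 CPM, 5 of them passed the filter, and 2 of these, cwp-4 and cwp-5, fell from levels under 2 CPM. The adult collagen col-19 stood at 0.205, 0.271 and 0.349 CPM at 0, 1 and 2 h and 61.9, 479 and 1065 CPM at 4, 5 and 6 h.

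Of 15443 genes tested out of 44200 in the table, 3266 rose and 2598 fell from the early to the late window at an adjusted p below 0.05 (edgeR quasi-likelihood test, Benjamini-Hochberg adjustment over all genes tested), which is 21.1% and 16.8% of the genes tested. The rises were the larger changes. Among the genes that rose, 2570 (78.7%) changed more than 2-fold, 1607 more than 8-fold and 303 more than 32-fold, and among those that fell 1063 (40.9%), 242 and 46 passed the same folds. The genes that rose held 3.37, 3.33 and 4.01% of all gene counts at 0, 1 and 2 h and 9.89, 15.3 and 17.4% at 4, 5 and 6 h, and those that fell went from 51.7, 51.3 and 46.3% to 35.8, 33.4 and 33.4%. The median log2 change over all genes tested was −0.04, and 5859 of the 5864 genes called had windows that did not overlap, as did 56.4% of all genes tested. In whole animals, fewer cells of a type and less RNA per cell cannot be told apart. The counts depend on single libraries: without the 1 h library no gene passed edgeR's test (smallest adjusted p 0.0546, with 3191 rises and 2585 falls at an unadjusted p below 0.05), without the 5 h library 1648 rose and 631 fell, and without the 6 h library 2283 rose and 1272 fell. Every count of called genes given here rests on the 1 h library in this way, and list counts that shrink by more than 1.5 times without another library are given with that value. All list counts are read against the 21.1% of genes tested that rose and the 16.8% that fell. In any list, a gene that passed the filter on low counts only through its late counts had to differ, so its rise is no separate result. This weighs most where many members failed the filter: 8.01% of chemoreceptors, 31.4% of histones, 71.4% of abu genes, 76.9% of col genes and 81.1% of astacins passed it.

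The 0 h library was taken at the shift and is the only one of the 6 from animals that had not yet been warmed, so the effects of warming and of development cannot be told apart where a gene differs mainly between 0 h and later. Without it, 2909 genes rose and 2043 fell among the hours spent at 26 °C. The 3 h library, which no window used, lay between all early and all late values for 85.5% of the genes that rose and 74.5% of those that fell. Of the genes that fell more than 2-fold, 524 were highest at 0 h, 331 at 1 h and 122 at 2 h. The genes that rose more than 2-fold reached their highest level later and over a longer time, 152 of them at 4 h, 427 at 5 h, 483 at 6 h, 436 at 7 h, 491 at 8 h, 291 at 9 h and 284 at 10 h. Over 7 to 10 h, 482 of them (18.8%) moved back by more than 0.5 of the way towards their early level, and 746 stood above all of their 4 to 6 h values in each of the 4 later libraries. Of the 1063 falls, 281 (26.4%) moved back in the same sense.

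**Figure D1:**
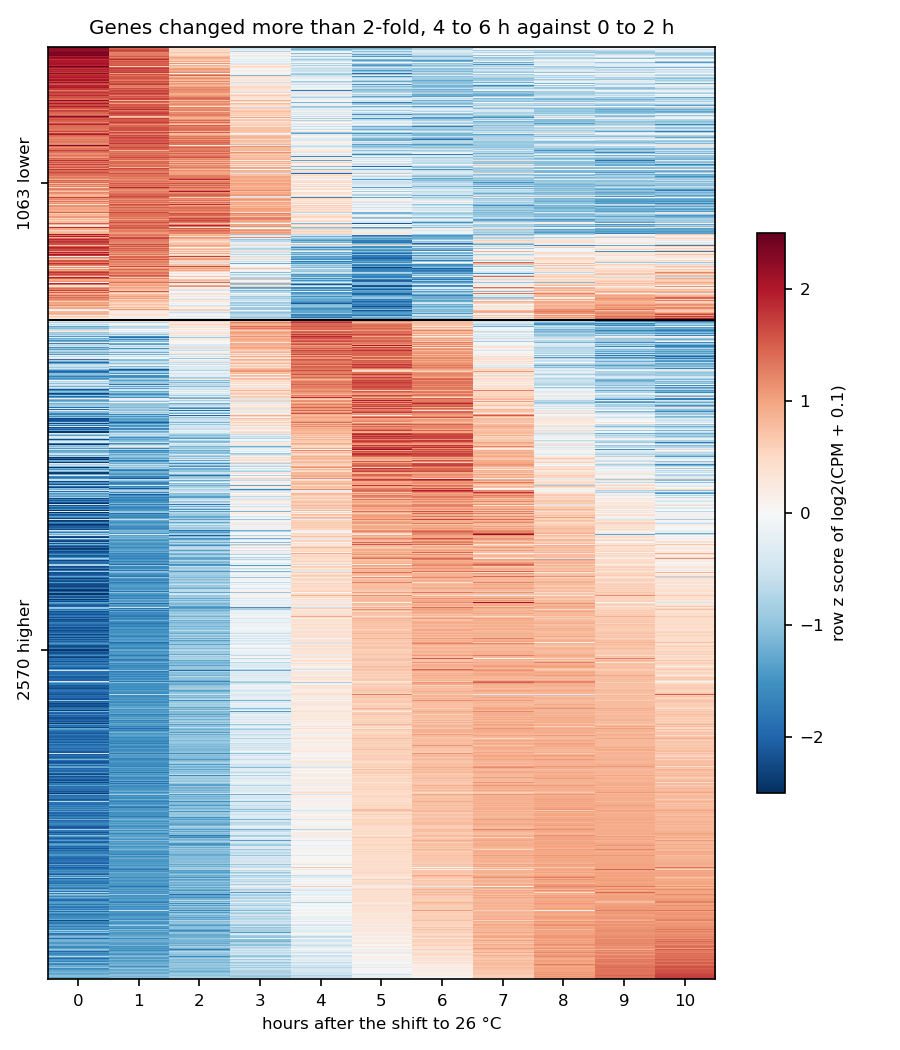
Hourly levels (log2 of CPM + 0.1, scaled per gene to mean 0 and SD 1) of the 1063 genes that fell and the 2570 that rose more than 2-fold, with 1 library per column from 0 to 10 h after the shift. The rows pass from high early and low late at the top to low early and high late at the bottom, and 482 of the rises return after 6 h.

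Genes of the earliest matrix of the molting cycle fell. Of 9 precuticle matrix genes, which encode the temporary matrix under which the cuticle is built, 8 fell and 1 rose, with a median log2 change of −5.003. fbn-1, a fibrillin-like matrix protein, stood at 449, 180.4 and 57.7 CPM at 0, 1 and 2 h and 5.06, 1.6 and 1.28 CPM at 4, 5 and 6 h (log2 change −6.48 ± 1.09, adjusted p = 0.0105; log2 changes are late over early, with the SE, from 3 libraries against 3). It was highest at 0 h and fell at each hour. The zona pellucida proteins noah-1 and noah-2 peaked at 1 h: noah-1 stood at 1408, 1687 and 1257 CPM in the early libraries and 101, 21.1 and 16.402 CPM in the late libraries (log2 change −5.003 ± 0.85, adjusted p = 0.0106). Also lower were let-653, a mucin-like protein with a zona pellucida domain, at −5.31 ± 0.93, the lipocalin lpr-3 at −5.67 ± 0.89 and the leucine-rich repeat protein sym-1 at −5.85 ± 0.84 on the log2 scale (adjusted p between 0.00916 and 0.0111). The lipocalins lpr-4 and lpr-5 fell beside lpr-3, from 624, 851 and 504 CPM to 29.8, 6.88 and 5.6 CPM for lpr-4 and from 680.5, 865 and 542 CPM to 34, 8.45 and 6.23 CPM for lpr-5 (adjusted p = 0.00948 and 0.00944). The exception among the 9 was dex-1, a matrix protein of sensory dendrites and of the epidermis, at 20.1, 13.5 and 15.8 CPM early and 25, 38.4 and 36.9 CPM late (log2 change 0.99 ± 0.23, adjusted p = 0.0215), and it did not pass without the 2 h, the 5 h or the 6 h library.

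All 6 furrow collagens fell. These collagens, dpy-2, dpy-3, dpy-7, dpy-8, dpy-9 and dpy-10, form the annular furrows of the cuticle and are the first collagens of each molt. dpy-10 stood at 631, 771 and 442 CPM at 0, 1 and 2 h and 26.6, 5.65 and 5.5 CPM at 4, 5 and 6 h (log2 change −5.64 ± 0.83, adjusted p = 0.00935). dpy-7 stood at 474, 646 and 392.2 CPM in the early libraries and 27.9, 6.05 and 4.57 CPM in the late libraries (log2 change −5.32 ± 0.86, adjusted p = 0.0102). Each of the 6 was highest at 1 h, and their log2 changes spanned −5.16 to −5.64. Their windows did not overlap, as for 5859 of the 5864 genes called. The count was 6 of 6 without the 0 h library as well. At 3 h dpy-10 was at 133 CPM and dpy-7 at 141 CPM.

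Other collagens were highest at 2, 3 or 4 h, at the edges of the windows or between them, and most of those named here did not pass the test between windows. Of the 11 other collagens named for body-shape mutants, dpy-17 fell (−1.91 ± 0.37, adjusted p = 0.0132, with levels under 10 CPM) and 10 did not pass the test. dpy-17 did not pass without the 5 h library, and 1 member rose without the 2 h library. sqt-3, a collagen needed throughout development, stood at 418, 1613 and 2841 CPM at 0, 1 and 2 h, 3255 CPM at 3 h and 2615, 784 and 305 CPM at 4, 5 and 6 h (adjusted p = 0.754). rol-6, whose mutants roll, followed the same order with 177, 439 and 685 CPM, 952 CPM and 853, 302 and 107 CPM. Both were highest at 3 h, and their windows overlapped. dpy-13 and dpy-5 peaked an hour later: dpy-13 went from 183 CPM at 0 h to 3976 CPM at 4 h and stood at 1278 CPM at 6 h. bli-1 and bli-2 encode the struts that join the layers of the adult cuticle and peaked at 2 h. bli-1 stood at 378, 1390.5 and 2053 CPM at 0, 1 and 2 h and 364, 62.9 and 40.3 CPM at 4, 5 and 6 h (adjusted p = 0.0707). col-38, col-49 and col-63, collagens of the same adult list, were highest at 4 h with 3597, 2078 and 3558 CPM, from 138, 28.4 and 7.1 CPM at 0 h, and none of the 3 passed the test. Without the 4 h library 2 of the adult and strut list fell.

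Genes of this kind were counted by a rule on levels alone, with no test: highest at 2, 3 or 4 h among the hours from 0 to 6, at least 4-fold above both the 0 h and the 6 h library, and at 10 CPM or more at the peak. The rule found 201 genes, of which 50 were highest at 2 h, 105 at 3 h and 46 at 4 h, and 194 of them did not pass the test between windows. They made up 1.3% of all genes tested and held 6 of the 11 body-shape collagens, 3 of 7 adult and strut collagens, 7 of 120 numbered collagens, 12 of 43 hedgehog-related genes, 3 of 20 molting factors and 4 of 16 heat shock genes. These shares are descriptions with no test. mlt-10, a secreted molting protein, stood at 62.9 CPM at 0 h, 915 CPM at 3 h and 44.2 CPM at 6 h, and qua-1, a hedgehog-related protein needed for molting, at 203 CPM at 0 h, 1038 CPM at 2 h and 41.6 CPM at 6 h. bed-3, a zinc finger regulator of the molt, went from 5.34 CPM at 0 h to 114 CPM at 4 h and 14.1 CPM at 6 h. The gene with the highest peak level by this rule was E01G4.6, at 77.5 CPM at 0 h, 5418 CPM at 3 h and 243 CPM at 6 h. These values are of single libraries, so a peak of 1 h has no replicate.

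**Figure D2:**
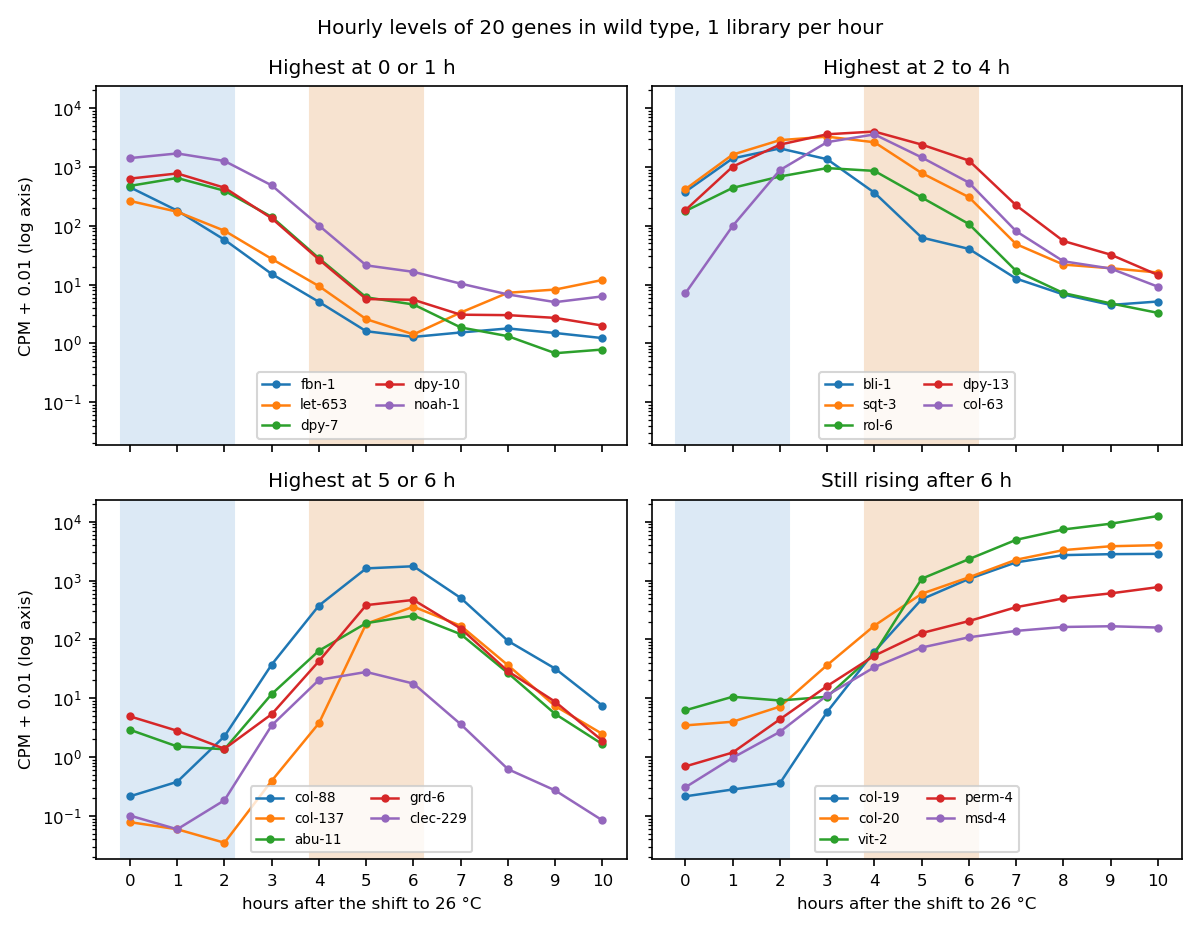
Hourly levels of 20 genes in wild type (CPM + 0.01, log axis), 1 library per point, with the early window shaded blue and the late window orange. fbn-1 falls from 0 h and dpy-7 and dpy-10 fall from 1 h, and sqt-3 and rol-6 peak at 3 h between the windows. col-88 and col-137 peak at 6 h and return, and col-19, vit-2 and msd-4 are still high at 10 h.

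The numbered cuticle collagens that passed the test mostly rose. Of 120 col genes tested, 60 rose and 9 fell, with a median log2 change of 2.34, and the col genes together went from 1.05, 1.15 and 1.94% of all gene counts at 0, 1 and 2 h to 5.04, 5.81 and 5.95% at 4, 5 and 6 h. col-19, the standard marker of the adult cuticle, rose (log2 change 10.89 ± 1.38, adjusted p = 0.00898), from the levels given above, and went on to 2840.0 CPM at 10 h. col-140 stood at 0.456, 0.296 and 1.65 CPM at 0, 1 and 2 h and 375, 1430.0 and 2160.4 CPM at 4, 5 and 6 h (log2 change 10.67 ± 1.21, adjusted p = 0.0088). All late values were far above all early values, but the rule that named it required windows that did not overlap. col-20, the other adult collagen that rose, stood at 3.45, 3.97 and 7.19 CPM in the early libraries and 171, 596 and 1133 CPM in the late libraries (log2 change 7.001 ± 0.88, adjusted p = 0.00895).

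The collagens that rose fell into those that stayed high and those that returned. 30 of the 60 moved back by more than 0.5 of the way over 7 to 10 h, and 20 of the 60 were highest at 5 h and 13 at 6 h. col-88 stood at 0.205, 0.37 and 2.25 CPM at 0, 1 and 2 h and 376, 1607 and 1748 CPM at 4, 5 and 6 h (log2 change 10.35 ± 1.40, adjusted p = 0.00908) and was down to 7.43 CPM at 10 h. col-137 stood at 0.0684, 0.0493 and 0.025 CPM in the early libraries and 3.76, 185 and 359 CPM in the late libraries (log2 change 11.78 ± 2.16, adjusted p = 0.012), and its early values rest on 6 counts in all. It was at 2.46 CPM at 10 h. In contrast col-81, col-129 and col-139 were at 2201, 2674 and 2397 CPM at 6 h and at 3899, 4897 and 4415 CPM at 8 h. A pair of low collagens rose from almost no counts: col-96 went from 0.0228, 0 and 0.125 to 6.94, 34.4 and 55.5 CPM and col-152 from 0.251, 0.0986 and 0.0998 to 27.1, 94.5 and 60.3 CPM (adjusted p = 0.00912 and 0.0088). The 9 that fell held col-176, at 1095, 649 and 192 CPM at 0, 1 and 2 h and 14.1, 4.31 and 4.13 CPM at 4, 5 and 6 h (log2 change −6.46 ± 0.97, adjusted p = 0.00951), and col-128 (−5.77 ± 0.74). col-98 fell as well, from 697, 458 and 124 CPM to 13.6, 4.03 and 12 CPM, and returned to 971 CPM at 10 h. With the 5 h library left out, 44 col genes rose and 9 fell.

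Of 43 hedgehog-related genes tested, secreted proteins of families such as warthog, groundhog and ground-like, 10 rose and 7 fell, shares near the 21.1% and 16.8% of all genes tested. grd-6 stood at 4.91, 2.79 and 1.37 CPM at 0, 1 and 2 h and 42.7, 382 and 468 CPM at 4, 5 and 6 h (log2 change 6.59 ± 1.13, adjusted p = 0.0107) and grd-14 at 5.02, 2.81 and 5.14 CPM in the early libraries and 166, 452 and 503 CPM in the late libraries (log2 change 6.41 ± 0.58, adjusted p = 0.0088). All 10 that rose were highest at 5 or 6 h and moved back by more than 0.5 of the way over 7 to 10 h, as grd-6 did with 1.88 CPM at 10 h. wrt-10 fell, with 737, 784 and 417 CPM early and 26.9, 6.88 and 4.74 CPM late (log2 change −5.68 ± 0.85, adjusted p = 0.00948). grd-10 fell and then returned, at 74.6 CPM at 0 h, 0.232 CPM at 5 h and 39.6 CPM at 10 h. When the 5 h library was left out, 7 of the family rose and 3 fell.

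The 31 cuticulin genes tested, which encode cuticle proteins with zona pellucida domains, gave 6 rises and 9 falls. Of all genes tested, 21.1% rose and 16.8% fell. cutl-5 stood at 0.297, 0.321 and 1.45 CPM early and 10.4, 14.8 and 9.16 CPM late (log2 change 4.04 ± 0.71, adjusted p = 0.0113) and cutl-9 at 15.3, 14 and 7.94 CPM early and 0.879, 0.764 and 0.588 CPM late (log2 change −4.09 ± 0.35, adjusted p = 0.0088). Without the 5 h library 3 rose and 5 fell. Of 30 astacins, secreted metalloproteases of which several release the old cuticle, 14 rose and 3 fell. nas-22 stood at 0, 0 and 0.0998 CPM early and 5.47, 15 and 17.2 CPM late (log2 change 8.46 ± 1.08, adjusted p = 0.00902, from 4 early counts in all) and nas-20 at 0.0456, 0.0247 and 0.125 CPM early and 1.47, 15.3 and 32.8 CPM late (log2 change 7.92 ± 1.45, adjusted p = 0.012). nas-37, a protease of the molt itself, fell with 131, 311 and 387 CPM early and 70.6, 15.8 and 11.7 CPM late (log2 change −3.10 ± 0.85, adjusted p = 0.0348) and had peaked at 2 h. 8 of the 14 astacins that rose moved back over 7 to 10 h. Of the astacins 1 fell without the 5 h library and 1 without the 6 h library.

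Among 20 molting factors, 2 rose and 5 fell, against 21.1% and 16.8% of all genes tested. The fall of mlt-11, a secreted protease inhibitor, was the largest of them, with 1415, 1642 and 1011 CPM at 0, 1 and 2 h and 87.9, 17.9 and 14.4 CPM at 4, 5 and 6 h (log2 change −5.11 ± 0.87, adjusted p = 0.0106), and its windows did not overlap. phy-2, a collagen hydroxylase subunit, and pdi-2, its partner in the endoplasmic reticulum, fell with log2 changes of −1.80 and −1.34 (adjusted p = 0.0151 and 0.0308). mlt-7, a peroxidase, rose late, with 38.2, 22.7 and 23.7 CPM early and 54.6, 81.7 and 263 CPM late (log2 change 2.21 ± 0.65, adjusted p = 0.0428). Fewer of the falls passed without single libraries: 2 without the 2 h, 1 without the 5 h and 2 without the 6 h library, against 9 without the 4 h library, and 1 rose without the 5 h library.

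Most tested genes of one family of the pharyngeal cuticle rose. The abu genes encode glutamine- and cysteine-rich proteins of that cuticle, and 8 of the 10 tested rose, with a median log2 change of 5.54. abu-11 stood at 2.9, 1.5 and 1.35 CPM at 0, 1 and 2 h and 64.2, 189 and 254 CPM at 4, 5 and 6 h (log2 change 6.43 ± 0.70, adjusted p = 0.0088), and abu-10 at 2.44, 1.21 and 0.574 CPM in the early libraries and 11, 85.7 and 153 CPM in the late libraries (log2 change 5.85 ± 1.16, adjusted p = 0.0143). Both were highest at 6 h and were at 1.64 and 1.39 CPM at 10 h. The other 2 tested members, abu-12 and abu-13, were highest at 4 h and at 3 h. The list holds 14 abu genes, and those not tested had failed the filter on low counts. With the 5 h library left out, 3 and without the 6 h library 5 of the 10 rose. Of 8 chitin synthases and chitinases, 4 rose: the eggshell synthase chs-1 (1.13 ± 0.24) and the chitinases cht-3 (5.58 ± 1.16), cht-4 (1.31 ± 0.35) and cht-6 (2.56 ± 0.56), with adjusted p between 0.0158 and 0.0308. chs-2, the synthase of the pharynx, peaked at 4 h with 69.2 CPM against 9.38 CPM at 0 h, and did not pass the test (adjusted p = 0.348). None of the 8 passed without the 5 h library in either direction by edgeR.

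**Figure D3:**
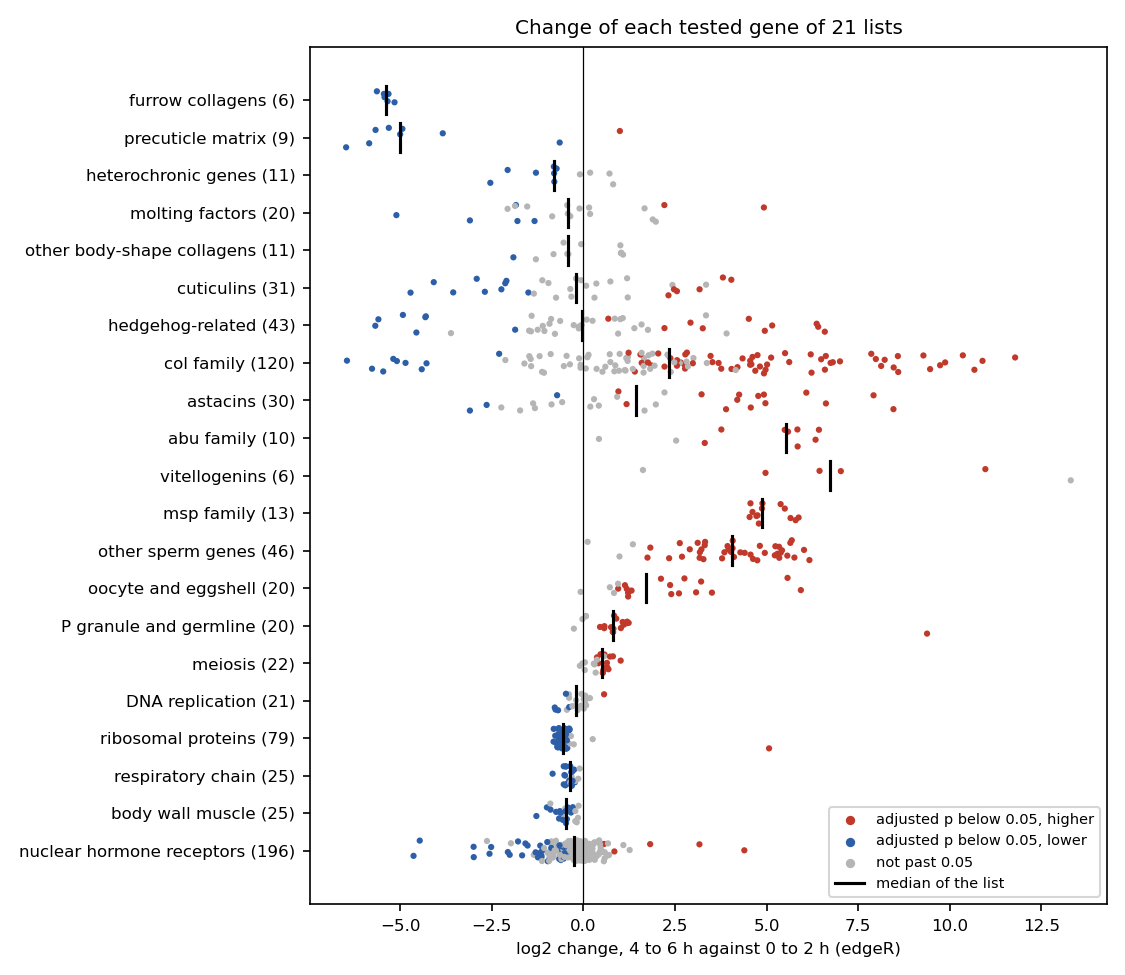
Log2 change of each tested gene in 21 of the lists (x axis, 4 to 6 h against 0 to 2 h), with rises in red, falls in blue, genes past neither in grey and the list's median as a bar. The furrow collagens lie between −5.16 and −5.64, the sperm list spans 0.11 to 6.17 and the oocyte list −0.08 to 5.93, and the positions of vit-4, vit-5 and nos-2 depend on the prior count because they had no early counts.

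Of 11 heterochronic genes, which set the timing of larval stages, 7 fell and 4 did not pass the test. lin-29, a zinc finger factor that drives the change from larval to adult epidermis, stood at 89.9, 83.8 and 70.2 CPM at 0, 1 and 2 h and 26.8, 16.6 and 15.7 CPM at 4, 5 and 6 h (log2 change −2.07 ± 0.25, adjusted p = 0.00886), and mab-10, its cofactor, at 114, 114 and 111 CPM in the early libraries and 35.3, 13.6 and 10.4 CPM in the late libraries (log2 change −2.54 ± 0.49, adjusted p = 0.0133). Both were lower at each late hour than at any early hour. hbl-1, daf-12, the Argonaute genes alg-1 and alg-2 and ain-1 fell by smaller amounts, with log2 changes between −0.73 and −1.30. The other 4 members, lin-14, lin-28, lin-41 and lin-46, had log2 changes of −0.10 ± 0.26, 0.18 ± 0.12, 0.71 ± 0.35 and 0.81 ± 0.67. lin-41 was at 122 CPM at 10 h against 41.6 CPM at 6 h. When the 5 h library was left out, 2 of the 11 fell, and without the 6 h library 4.

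Of 9 transcription factors and regulators of the molting cycle, 2 fell, against 16.8% of all genes tested. myrf-1, a membrane-bound factor needed for molting, stood at 337, 311 and 259.5 CPM early and 105, 39.4 and 28.1 CPM late (log2 change −2.42 ± 0.53, adjusted p = 0.018), and grh-1, the grainyhead factor of epidermal barriers, at 33.4, 59.6 and 57.7 CPM early and 21, 11.4 and 8.17 CPM late (log2 change −1.92 ± 0.42, adjusted p = 0.018). Neither passed without the 5 h library, where 0 of the 9 did by edgeR, and without the 4 h library 4 of the 9 fell. nhr-23, the receptor that drives each molt, had 125, 89.5 and 62.2 CPM early and 44.7, 50.6 and 58.4 CPM late and missed the threshold (adjusted p = 0.0506). lin-42, the period homologue of worms, peaked at 3 h with 380.0 CPM, from 159.6 CPM at 0 h to 56 CPM at 6 h (adjusted p = 0.183).

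Of 196 nuclear hormone receptors tested, 37 fell and 5 rose, against 16.8% and 21.1% of all genes, and the list's median was −0.25. nhr-91 stood at 64.5, 59.2 and 29.4 CPM early and 4.52, 7.11 and 7.88 CPM late (log2 change −2.999 ± 0.39, adjusted p = 0.00902), and nhr-234 and nhr-235 fell with log2 changes of −2.99 and −4.47. Without the 5 h library 2 rose and 5 fell, without the 6 h library 17 fell, and without the 4 h library 11 rose and 24 fell. Without the 0 h and the 2 h library 10 and 8 rose. Of 45 ceh homeobox genes, 5 rose and 9 fell. ceh-60, which in adults acts in the intestine on yolk genes, stood at 9.35, 6.24 and 4.39 CPM early and 14.8, 19.3 and 19.3 CPM late (log2 change 1.39 ± 0.31, adjusted p = 0.0194). ceh-22, a factor of the pharynx, fell to 2.42, 1.32 and 1.23 CPM from 5.09, 3.77 and 3.59 CPM (log2 change −1.36 ± 0.34, adjusted p = 0.0268). The ceh counts were 0 up and 1 down without the 5 h, 1 and 3 without the 6 h, and 3 and 3 without the 0 h library.

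Most yolk genes rose. Vitellogenins are the yolk proteins that the intestine makes for oocytes, and 4 of the 6 genes rose. vit-2 stood at 6.23, 10.6 and 9.13 CPM at 0, 1 and 2 h and 57.2, 1072 and 2307 CPM at 4, 5 and 6 h (log2 change 7.02 ± 1.41, adjusted p = 0.0147). vit-6 stood at 50.9, 60.8 and 56.6 CPM in the early libraries and 121, 1747 and 3497 CPM in the late libraries (log2 change 4.97 ± 1.18, adjusted p = 0.0229). In both the step lay between 4 h and 5 h, and both went on rising, to 12469.8 and 15272 CPM at 10 h. vit-4 had no counts at 0, 1 and 2 h and 0.562, 5.35 and 11 CPM at 4, 5 and 6 h, which is at least 263-fold higher (adjusted p = 0.0318; the bound takes 3 counts over the early libraries). vit-5 also had no early counts and 0.342, 21.9 and 63.1 CPM late, and missed the threshold (adjusted p = 0.0558), as did vit-1, with 60.3, 114 and 108 CPM early and 75, 272 and 534 CPM late (adjusted p = 0.115). vit-3, vit-4 and vit-5 are close copies, so reads may have been split among them. The count of rises was 2 without the 5 h, 2 without the 6 h and 2 without the 0 h library.

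Of 27 other genes of the intestine, 7 fell, 3 rose and 17 did not pass the test, where 16.8% of all genes tested fell and 21.1% rose. The cathepsin B-like proteases cpr-1, cpr-4 and cpr-5 fell together, cpr-4 from 1485, 1310.0 and 1209 CPM to 654, 275 and 296 CPM (log2 change −1.74 ± 0.37, adjusted p = 0.0173), cpr-1 by −1.69 and cpr-5 by −1.73 on the log2 scale. elt-7, a GATA factor of the intestine, lys-1, a lysozyme, and mtl-1, a metallothionein, rose by 1.03 ± 0.16, 1.001 ± 0.13 and 3.47 ± 0.53. elt-2, the main GATA factor of the intestine, had a log2 change of −0.13 ± 0.31 (adjusted p = 0.753). With the 5 h library left out, 2 and without the 6 h library 3 of the 27 fell. Of 16 desaturases, elongases and regulators of membrane lipids, 6 fell. fat-7, a stearoyl-CoA desaturase, stood at 81.8, 229.1 and 279 CPM early and 38.8, 17.9 and 8.2 CPM late (log2 change −3.20 ± 0.73, adjusted p = 0.0207), fat-4 at 519.9, 474 and 407 CPM early and 237, 189.7 and 199 CPM late (log2 change −1.19 ± 0.14, adjusted p = 0.00894) and the elongase elo-1 fell with a log2 change of −0.85. fat-7 was lowest at 0 h among the early libraries and peaked at 2 h, whereas fat-4 was highest at 0 h. The desaturase fat-5 was highest at 2 h, from 5.27 CPM at 0 h to 77.7 CPM at 2 h and 7.55 CPM at 6 h. When the 5 h library was left out, 1 and without the 6 h library 2 of the 16 fell. Lipid-binding proteins and lipases gave 7 rises and 8 falls among 26, with lips-7 at 1.89, 3.48 and 5.74 CPM early and 48.9, 52.9 and 27.3 CPM late (log2 change 3.52 ± 0.49, adjusted p = 0.00912), and 4 rises and 4 falls without the 5 h and 5 falls without the 6 h library.

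Sperm genes rose. Of 46 genes of sperm outside the major sperm protein family, 43 rose, with a median log2 change of 4.05. msd-4, a small protein with a major sperm protein domain, stood at 0.297, 0.962 and 2.67 CPM at 0, 1 and 2 h and 33.6, 72.6 and 108 CPM at 4, 5 and 6 h (log2 change 5.76 ± 0.93, adjusted p = 0.0101). nspd-2 stood at 0.228, 0.641 and 1.92 CPM in the early libraries and 20.7, 46.7 and 73.9 CPM in the late libraries (log2 change 5.65 ± 0.93, adjusted p = 0.0103), and ssp-10 at 0.0456, 0.395 and 1.07 CPM in the early libraries and 18.4, 35.7 and 55.7 CPM in the late libraries (log2 change 6.17 ± 1.02, adjusted p = 0.0103). All 43 had windows that did not overlap, as did 5859 of the 5864 genes called, so this adds no support. The levels of msd-4, nspd-2 and ssp-10 were higher at each later hour from 0 to 6 h. The major sperm proteins, which drive sperm crawling and signal to oocytes, were measured in 30 genes, of which 13 passed the filter, all 13 rising. msp-142 stood at 0.274, 0.395 and 0.724 CPM early and 6.23, 13.3 and 18.6 CPM late (log2 change 4.75 ± 0.59, adjusted p = 0.00895). The msp genes are near-identical copies and together held at most 0.0116% of gene counts in the 6 libraries, so how reads that match several copies were counted could change these levels. A gene that passed the filter only through its late counts had to differ, and the count over the genes tested is read with that in mind.

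Most oocyte and germline genes also rose. Of 20 genes of oocytes and the eggshell, 16 rose, with a median of 1.71, and all 16 were highest at 10 h. perm-4, a component of the eggshell's permeability barrier, stood at 0.684, 1.18 and 4.37 CPM at 0, 1 and 2 h and 52.9, 128 and 205 CPM at 4, 5 and 6 h (log2 change 5.93 ± 0.95, adjusted p = 0.0101). cpg-2, a chondroitin proteoglycan of the eggshell, stood at 17, 15.7 and 23.2 CPM in the early libraries and 85.3, 178 and 263 CPM in the late libraries (log2 change 3.21 ± 0.45, adjusted p = 0.00912), and puf-5, an RNA-binding regulator of oocytes, at 3.1, 3.25 and 5.02 CPM in the early libraries and 18.6, 40.9 and 71.9 CPM in the late libraries (log2 change 3.51 ± 0.55, adjusted p = 0.00982). By 10 h they had reached 772, 1232 and 490.3 CPM. Of 20 genes of P granules and germ cell regulation 16 rose, with a median of 0.81, among them gld-1, a repressor of translation in the germline, with 134, 146 and 173 CPM early and 295, 363 and 395 CPM late (log2 change 1.19 ± 0.15, adjusted p = 0.00898), and cgh-1, a DEAD-box helicase of germline granules (1.17 ± 0.21). nos-2, a nanos homologue, had no early counts and was at least 86.7-fold higher late, at 0.366, 1.55 and 3.66 CPM. Without the 5 h library 10 oocyte genes and 10 germline genes rose.

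Genes of meiosis and division changed in part. 13 of 22 meiotic genes rose, with a median of 0.50. spo-11, the enzyme that makes meiotic double-strand breaks, stood at 9.31, 13.3 and 17.9 CPM early and 23.1, 28.9 and 31.2 CPM late (log2 change 1.02 ± 0.26, adjusted p = 0.0285). Of 17 mitotic genes 7 rose, among them the cyclins cyb-1 (1.05 ± 0.16), cyb-2.1 (1.58 ± 0.36) and cyb-2.2 (1.99 ± 0.38), all highest at 10 h. Of 21 genes of DNA replication 5 fell and 1 rose, against 16.8% and 21.1% of all genes tested. mcm-6, a subunit of the replicative helicase, stood at 128, 123.2 and 90.4 CPM at 0, 1 and 2 h and 65.4, 63.7 and 75.8 CPM at 4, 5 and 6 h (log2 change −0.76 ± 0.16, adjusted p = 0.0172). It returned to 170.0 CPM at 10 h, and all 5 falls moved back in this way. rnr-1, a ribonucleotide reductase subunit, fell with a log2 change of −0.78 and was at 211 CPM at 10 h. With the 5 h library left out, 1 meiotic and 1 mitotic genes rose, 0 replication genes rose and 0 fell. Without the 6 h library 3 meiotic and 3 mitotic genes rose and 2 replication genes fell, and without the 4 h library 2 replication genes fell. Of 22 histone genes tested, 7 rose, including the H3.3-type gene his-70 with 0.57, 1.97 and 4.04 CPM early and 23, 30.8 and 33.5 CPM late (log2 change 3.71 ± 0.69, adjusted p = 0.0126). Most histone mRNAs lack a polyA tail, so a polyA library measures them poorly. Of the histone genes 2 rose without the 5 h library and 2 fell without the 0 h or the 4 h library.

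Ribosomal protein genes fell by small amounts. Of 79 ribosomal protein genes, 74 fell and 1 rose, with a median log2 change of −0.55 against −0.04 over all genes tested. rps-4 stood at 4074, 4156 and 3646 CPM at 0, 1 and 2 h and 2609, 2124 and 2154 CPM at 4, 5 and 6 h (log2 change −0.81 ± 0.13, adjusted p = 0.0101). rpl-7A stood at 2324, 2361 and 1940.3 CPM in the early libraries and 1442, 1242 and 1270.2 CPM in the late libraries (log2 change −0.77 ± 0.13, adjusted p = 0.0103). In each case all late values were below all early values, and 71 of the 74 were highest at 1 h. The 1 that rose, rpl-42, was at 0.0684, 0.148 and 0.225 CPM early and 2.96, 5.54 and 6.65 CPM late (log2 change 5.07 ± 0.54, adjusted p = 0.0088). The count moved with single libraries: 6 fell without the 5 h library and 22 without the 6 h library, with medians of −0.508 and −0.505. Of 18 nucleolar and ribosome biogenesis genes none passed edgeR's test, 0 rose and 4 fell at an unadjusted p below 0.05, and DESeq2 called 1 lower and limma-voom 0. Without the 2 h library 4 fell.

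Most tested subunits of the mitochondrial respiratory chain fell. Of 25 genes, 20 fell, with a median of −0.36. atp-1, the alpha subunit of the ATP synthase, stood at 3768, 3615 and 3243 CPM early and 2634, 2431 and 2485 CPM late (log2 change −0.52 ± 0.11, adjusted p = 0.0162). The count was 2 without the 5 h, 2 without the 6 h, 11 without the 4 h and 12 without the 0 h library. Of 33 proteasome genes 1 rose, rpn-6.2, and 1 fell, rpn-13 (0.94 ± 0.22 and −0.69 ± 0.11). Without the 5 h and without the 6 h library 0 and 0 rose, and 2 and 3 fell without the 0 h and the 4 h library.

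The 4 heat shock genes that met the rule on peaks at 2 to 4 h were all highest at 2 h. Of these, hsp-17 stood at 74.3 CPM at 0 h, 452 CPM at 2 h and 33.3 CPM at 6 h. The small heat shock proteins hsp-16.2 and hsp-16.41 are induced by stress. hsp-16.2 stood at 2.72, 219 and 638 CPM at 0, 1 and 2 h and 125, 42 and 16.37 CPM at 4, 5 and 6 h, and hsp-16.41 at 2.14, 223 and 773 CPM in the early libraries and 222, 54.5 and 25.5 CPM in the late libraries. Both were lowest at 0 h, highest at 2 h and still above the 0 h value at 6 h. hsp-70, an inducible Hsp70, went from 5.54 CPM at 0 h to 420.2 CPM at 2 h and 9.26 CPM at 6 h. None of the 4 passed the test between windows (adjusted p = 0.314, 0.449 and 0.0615 for hsp-16.2, hsp-16.41 and hsp-70). In the whole list of 16, 4 fell and 1 rose, against 16.8% and 21.1% of all genes tested. hsp-1, the constitutive Hsp70, stood at 4246, 6156 and 6371 CPM early and 4156, 3467 and 3097 CPM late (log2 change −0.67 ± 0.20, adjusted p = 0.0461), and dnj-13, a cochaperone, at 296, 533 and 315 CPM early and 236, 190.2 and 155 CPM late (log2 change −1.002 ± 0.28, adjusted p = 0.0386). The 1 that rose, sip-1, is a small heat shock protein of oocytes and embryos, at 5.48, 7.2 and 17.6 CPM at 0, 1 and 2 h and 177, 288 and 384 CPM at 4, 5 and 6 h (log2 change 4.79 ± 0.59, adjusted p = 0.00895), and it was still rising at 10 h with 710.3 CPM. Without the 0 h library 8 of the 16 fell, without the 5 h library 0 and without the 6 h library 2.

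Chaperones of the endoplasmic reticulum and mitochondria fell in 6 of 12 cases. enpl-1, the Hsp90 of the endoplasmic reticulum, stood at 1713, 1912 and 2073 CPM early and 1363, 1246 and 1168 CPM late (log2 change −0.62 ± 0.11, adjusted p = 0.0122), and the calreticulin gene crt-1 and the mitochondrial hsp-60 fell with log2 changes of −0.49 and −0.45. hsp-4, the marker of the unfolded protein response, stood at 342 CPM at 0 h, 3395 CPM at 2 h and 1321, 1154 and 1094 CPM at 4, 5 and 6 h, and did not pass the test, with late values between its early ones (adjusted p = 0.52). pdi-2 had its peak at 2 h as well, with 6883 CPM, and was at 1579.6 CPM at 6 h. When the 5 h library was left out, 0 and without the 6 h library 1 of the 12 fell.

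Of 25 genes of body wall and pharyngeal muscle 16 fell, against 16.8% of all genes tested, with a median of −0.48. myo-1, a myosin heavy chain of the pharynx, stood at 699, 538 and 377 CPM at 0, 1 and 2 h and 219.5, 215 and 241 CPM at 4, 5 and 6 h (log2 change −1.29 ± 0.24, adjusted p = 0.0123), and the myosin light chain mlc-1 at 1394, 1196 and 979 CPM in the early libraries and 661, 631 and 658 CPM in the late libraries (log2 change −0.90 ± 0.15, adjusted p = 0.0106). Both were highest at 0 h, as were 14 of the 16, and without the 0 h library 10 fell. Without the 5 h library 2 and without the 6 h library 6 fell.

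Of 20 synaptic and neuronal genes, 4 fell, a share near the 16.8% of all genes tested: unc-64, the syntaxin (−0.80 ± 0.10), unc-25, the GABA-synthesising enzyme (−0.49 ± 0.13), unc-13, a factor of vesicle priming (−0.46 ± 0.12), and egl-21, a carboxypeptidase that processes neuropeptides (−0.38 ± 0.10), with adjusted p between 0.00902 and 0.036. That count was 1 without the 5 h, the 6 h or the 0 h library, and 8 without the 2 h library. Of 94 neuropeptide genes 27 fell and 5 rose, and 18 of the 27 were highest at 0 h. nlp-25 stood at 1.32, 1.33 and 2.62 CPM early and 18.8, 48.1 and 51.1 CPM late (log2 change 4.46 ± 0.53, adjusted p = 0.00886), and nlp-26 at 28.9, 14.5 and 5.57 CPM early and 0.293, 0.278 and 2.2 CPM late (log2 change −4.14 ± 1.10, adjusted p = 0.0318). nlp-26 was back at 25.8 CPM at 8 h. The counts were 1 up and 3 down without the 5 h, 1 and 8 without the 6 h, 3 and 13 without the 0 h, and 13 down without the 4 h library. Of 25 insulin-like genes, 5 fell and 1, ins-37, rose (3.37 ± 0.67). ins-35 stood at 18.2, 14.2 and 6.59 CPM early and 2.03, 0.718 and 0.269 CPM late (log2 change −3.73 ± 0.83, adjusted p = 0.0194). With the 5 h library left out, 0 rose and 0 fell, and 3, 3 and 2 fell without the 6 h, the 0 h and the 4 h library.

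Among 21 genes of vulval fate and of chondroitin synthesis, which opens the vulval lumen, 6 fell and 1 rose. cdh-3, a cadherin of the vulva, stood at 40.6, 31.5 and 14.7 CPM early and 4.05, 5.24 and 4.6 CPM late (log2 change −2.67 ± 0.40, adjusted p = 0.00951), and the fate regulators lin-11, lin-12 and lin-39 fell with log2 changes of −0.73, −0.65 and −0.57. sqv-1, an enzyme of chondroitin precursor synthesis, stood at 29.5, 31.1 and 30.8 CPM early and 36.2, 71.3 and 90.1 CPM late (log2 change 1.09 ± 0.32, adjusted p = 0.0451). The number of falls was 1 without the 5 h and 2 without the 6 h library. sqv-1 did not pass without the 0 h, the 2 h, the 5 h or the 6 h library, where no member rose in edgeR's test, and 2 members rose without the 4 h library.

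Among families of defence and detoxification, the counts are read against the 21.1% of all genes tested that rose and the 16.8% that fell. Of 127 C-type lectins tested, 33 rose and 27 fell, not far from those shares, and the sign of their median changed with the scaling, from −0.02 to 0.02 on the log2 scale. clec-229 stood at 0.0913, 0.0493 and 0.175 CPM at 0, 1 and 2 h and 20.5, 27.9 and 17.7 CPM at 4, 5 and 6 h (log2 change 7.66 ± 0.46, adjusted p = 0.0088) and returned to 0.0739 CPM at 10 h. The falls were 5, 12 and 17 without the 5 h, the 6 h and the 0 h library. Of 41 lysozymes, saposins and infection response genes 11 fell and 3 rose, with the saposin spp-17 at 436, 513 and 466 CPM early and 263, 185 and 172 CPM late (log2 change −1.21 ± 0.19, adjusted p = 0.0096), and 2 and 5 fell without the 5 h and the 6 h library. Of 23 antimicrobial peptide genes of the epidermis 4 fell and 2 rose. nlp-31 fell and nlp-34 rose, with log2 changes of −1.52 and 3.15 (adjusted p = 0.0101 and 0.0351), and 1 rose without the 4 h, the 5 h or the 6 h library.

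Of 56 cytochrome P450 genes, enzymes that oxidise lipids and foreign compounds, 10 rose and 13 fell. cyp-37B1 stood at 0.0913, 0.123 and 0.449 CPM early and 14.7, 31.5 and 25.2 CPM late (log2 change 6.72 ± 0.70, adjusted p = 0.0088), and cyp-13A10 at 12.25, 9.99 and 5.37 CPM early and 0.415, 0.208 and 0.185 CPM late (log2 change −5.13 ± 0.51, adjusted p = 0.0088). Without the 5 h library 2 rose and 6 fell, and without the 6 h library 5 and 8. Of 62 UDP-glucuronosyltransferases 12 rose and 17 fell (7 and 10 without the 5 h library), and ugt-57 was among the largest falls of all, with 102, 67.4 and 32.2 CPM early and 2.93, 0.903 and 0.622 CPM late (log2 change −5.54 ± 0.82, adjusted p = 0.00942). Of 36 glutathione S-transferases 15 fell and 3 rose, with gst-24 at 37.7, 17.5 and 7.69 CPM early and 3.64, 4.24 and 4.5 CPM late (log2 change −2.37 ± 0.59, adjusted p = 0.0258), and 6 fell and 0 rose without the 5 h library.

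Several other large families had shares of rises near the 21.1% of all genes tested, with falls at or below the 16.8%. Transthyretin-related genes gave 12 rises and 7 falls among 52. ttr-14 stood at 0.388, 4.17 and 35.2 CPM early and 363, 686 and 703 CPM late (log2 change 5.45 ± 1.59, adjusted p = 0.0419), and the counts were 2 and 4 without the 5 h library, with 5 rises without the 6 h library. Of 1299 chemoreceptor genes in the list 8.01% passed the filter, and of these 27 rose and 8 fell. Members that passed the filter only through their late counts had to rise, so this count does not describe the whole list. str-180 stood at 0.16, 0.0247 and 0.399 CPM early and 4.37, 9.27 and 8.1 CPM late (log2 change 5.18 ± 0.82, adjusted p = 0.00989), and 11 rose and 5 fell without the 5 h library. Of 115 fbxa genes, F-box proteins of a fast-evolving family, 25 rose and 12 fell. fbxa-42 stood at 1.15 CPM or less early and at 5.4 to 13.5 CPM late (log2 change 4.24 ± 0.84, adjusted p = 0.0142). The fbxa counts were 12 and 2 without the 5 h, 16 and 4 without the 6 h library, with 7 falls without the 0 h library. Of 27 pals genes, which respond to intracellular pathogens, 6 rose and 2 fell, with pals-24 at 8.26, 2.71 and 4.84 CPM early and 20.6, 19.8 and 28.2 CPM late (log2 change 2.09 ± 0.43, adjusted p = 0.0158). None of the 27 passed edgeR's test without the 5 h library, the falls were 0 without the 6 h library, and 1 without the 0 h, the 2 h or the 4 h library.

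xrn-2, the gene that the series is about, was at 183, 125 and 105 CPM at 0, 1 and 2 h and 118, 111 and 110.1 CPM at 4, 5 and 6 h in wild type. The 0 h value was the highest and the other 5 lay between 105 and 125 CPM, and xrn-2 did not pass the test (log2 change −0.31 ± 0.22, adjusted p = 0.293). Of 17 genes of XRN2, its partners and mRNA 3′ end formation, 1 fell, cpf-2, a cleavage stimulation factor subunit (−0.43 ± 0.08, adjusted p = 0.0128). cpf-2 did not pass without the 5 h library, and 1 member of the list rose without the 4 h library.

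Several of the largest changes were in genes without an assigned role. F17E9.4 had no counts at 0, 1 and 2 h and 1.61, 8.94 and 21.9 CPM at 4, 5 and 6 h, which is at least 507-fold higher (adjusted p = 0.022). F54F7.3 had 3 early counts in all and 8.62, 44.8 and 61 CPM late, 1708 times as high, with a 95% counting interval of 584 to 8286. T12B5.15 had 2 early counts and 3.76, 13.7 and 20.7 CPM late, 857 times as high, with a 95% counting interval of 237 to 7082. These intervals cover counting error only. C35B1.4 stood at 0, 0 and 0.125 CPM early and 13.9, 34.6 and 44.3 CPM late (log2 change 9.46 ± 1.07, adjusted p = 0.0088) and C44B7.5 at 0, 0 and 0.15 CPM early and 5.1, 23.1 and 41.3 CPM late (log2 change 8.80 ± 1.40, adjusted p = 0.0101). ule-3, a uterine lumen protein, rose from 0.0684, 0.0986 and 0.125 to 2.96, 40.5 and 122.6 CPM and on to 536 CPM at 10 h. In all, 10 genes that rose had no early count, and none that fell had no late count.

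dpy-6 fell the furthest of the called genes with at least 10 CPM and windows that did not overlap. It encodes a mucin-like cuticle protein and stood at 442, 169.6 and 47.6 CPM at 0, 1 and 2 h and 4.08, 0.996 and 1.31 CPM at 4, 5 and 6 h (log2 change −6.73 ± 1.15, adjusted p = 0.0107). F25D1.3 stood at 16, 15.9 and 5.39 CPM early and 0.366, 0.0695 and 0.101 CPM late (log2 change −6.17 ± 0.82, adjusted p = 0.00902). F46F2.3 fell from 679.8, 244 and 65.9 CPM to 6.84, 3.66 and 8.91 CPM and was back at 240.0 CPM at 10 h. Like grd-10 it is a fall of these hours that the later libraries undo in part. The fall of col-98 was undone in full, with 971 CPM at 10 h against 697 CPM at 0 h.

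For the same libraries, reads were also counted in flanking windows, 1 on the downstream and 1 on the upstream side of a gene. How long these windows are is not stated in the labels or headers. Each window was tested relative to its own gene, so that a ratio can move through either part. Of 5380 downstream windows tested, 379 (7.04%) rose and 458 (8.51%) fell relative to the gene, with a median log2 change of −0.07, and of 3093 upstream windows 213 (6.89%) rose and 276 (8.92%) fell, with a median of −0.06 (edgeR, adjusted p below 0.05, library as a block). These are changes of the gene in many cases. The gene itself had fallen for 185 of the 379 downstream rises (48.8%), against 15.9% of the windows tested, and had risen for 348 of the 458 falls (76%), against 20.8%. Tested on their own, without gene counts, 602 downstream windows rose and 285 fell, and 210 of the 379 rises were among the 602. For upstream windows 42.7% of the rises had a gene that fell and 75% of the falls a gene that rose, and 404 rose and 186 fell on their own. Single libraries move these counts: without the 1 h, the 5 h and the 6 h library 138, 94 and 204 downstream windows rose and 172, 125 and 258 fell, and 76, 65 and 106 upstream windows rose. Upstream falls numbered 92 without the 5 h and 143 without the 6 h library.

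The largest downstream rises were at windows that gained counts while the gene fell or did not pass the test. Downstream of let-418, a Mi2-type chromatin remodeller, the window held 1, 2 and 8 counts at 0, 1 and 2 h and 582, 2195 and 4697 at 4, 5 and 6 h, whereas the gene's log2 change was −0.19 (log2 change of the ratio 8.97 ± 0.98, adjusted p = 0.00395). All late counts were above all early counts. Downstream of noah-2 the window held 48, 17 and 22 counts at 0, 1 and 2 h and 299, 695 and 1421 at 4, 5 and 6 h, and noah-2 itself fell. By the order of genes in the RefSeq annotation of assembly WBcel235, noah-2 lies next to col-133, which rose (4.75 ± 0.70). nadk-1, a NAD kinase, had 0, 0 and 3 counts at 0, 1 and 2 h and 82, 235 and 445 at 4, 5 and 6 h in its window with little change of the gene (0.10), and lies next to col-106, which rose (8.47 ± 1.498). nhr-97 had 5, 14 and 35 counts at 0, 1 and 2 h and 320, 941 and 2207 at 4, 5 and 6 h and lies between C28D4.8 and ssp-36, both of which rose (5.46 ± 0.63 and 4.03 ± 0.79). C34F6.11 had no early window counts and 6, 27 and 89 at 4, 5 and 6 h, and lies next to col-179, which rose (4.82 ± 1.19). Y116F11B.2 had 3, 7 and 17 counts at 0, 1 and 2 h and 148, 358 and 694 at 4, 5 and 6 h in its window, and neither of its neighbours rose. Of the neighbours of let-418, ZC250.4 did not pass the test (0.66 ± 0.24) and srh-76 was not tested. In all, a neighbour on either side had risen at 5 of the 8 largest downstream rises. Strand was not used, so this neighbour need not lie on the side of the window. WBGene00022860, with 3 window counts early and 3913 late, had no known neighbour and was counted as lacking a risen one.

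The 5 largest downstream falls were at genes that rose. C44B7.5 had 15, 18 and 27 counts at 0, 1 and 2 h and 17, 25 and 43 at 4, 5 and 6 h in its window while the gene went from 6 counts to 3668 in the summed libraries. The window tested on its own had a log2 change of 0.23 and did not pass. In msp-3 and Y38H8A.2 the window tested on its own did not pass either. In F14F7.4 and acs-15 the window also fell on its own. F14F7.4 had 478, 281 and 73 counts at 0, 1 and 2 h and 12, 3 and 13 at 4, 5 and 6 h (log2 change of the ratio −8.42 ± 1.62, adjusted p = 0.0151), and one of its neighbours, cyp-13A12, fell (−2.55 ± 0.57).

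Of the 8 largest upstream rises, a neighbour on either side had risen at 5 as well. Neither neighbour of Y47D7A.12 was tested, and it was counted as lacking a risen one. clp-10, a calpain protease, had no early counts in its upstream window and 10, 32 and 53 late, and lies next to col-88, which rose (10.35 ± 1.40). W03G11.3 had 0, 0 and 2 counts at 0, 1 and 2 h and 86, 319 and 627 at 4, 5 and 6 h and lies next to col-181 (8.22 ± 1.56). F55C10.4 had 3, 1 and 0 counts at 0, 1 and 2 h and 24, 42 and 42 at 4, 5 and 6 h and lies between col-154 and col-155 (2.77 ± 0.77 and 2.37 ± 0.60). faah-6, an amide hydrolase, had no early counts in its window and 6, 19 and 36 late, and no tested neighbour of it rose. The 5 largest upstream falls were at genes that rose, and 4 of these windows also fell on their own. lips-7 had 17, 29 and 10 counts at 0, 1 and 2 h and 1, 1 and 2 at 4, 5 and 6 h in the window (log2 change of the ratio −7.43 ± 0.78, adjusted p = 0.00243) and C47A4.3 had 13, 30 and 25 counts at 0, 1 and 2 h and 2, 4 and 2 at 4, 5 and 6 h.

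Across windows whose neighbours on both sides were tested, a neighbour had risen for 133 of 261 downstream rises (51%) and for 1048 of 3189 windows past neither threshold (32.9%), and for 75 of 143 upstream rises (52.4%) and 589 of 1895 others (31.1%). For falls the shares lay closer together. A neighbour had fallen for 125 of 321 downstream falls (38.9%) and 31% of windows not called, and for 82 of 214 upstream falls (38.3%) and 33.5% of windows not called. These shares are descriptions that count a neighbour on either side without regard to strand, and the part of reads from neighbouring genes in the windows was not tested.

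Summed over all genes, downstream counts were 0.892, 0.886 and 0.96 per 100 gene counts at 0, 1 and 2 h and 1.17, 1.31 and 1.3 at 4, 5 and 6 h. The means were 0.913 ± 0.0414 (SD, n = 3) and 1.26 ± 0.0775 (SD, n = 3), 1.38-fold apart, and the windows did not overlap (exact permutation test of the log2 share, two-sided, p = 0.1, the smallest p that 3 against 3 libraries allow). At 10 h the value was 1.08. Upstream counts were 0.455, 0.437 and 0.46 early and 0.488, 0.543 and 0.55 late, with means of 0.45 ± 0.0123 and 0.527 ± 0.034 (SD, n = 3), 1.17-fold apart (exact p = 0.1). The median over genes of the log2 share moved the other way, by −0.25 for both windows. The window with the most counts, that of let-19 at 0 to 4 h and of Y47D7A.13 at 5 and 6 h, held 12.5 to 13.5% of all downstream counts, and that of F07H5.13 held 16.3 to 18.8% of the upstream counts.

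**Figure D4:**
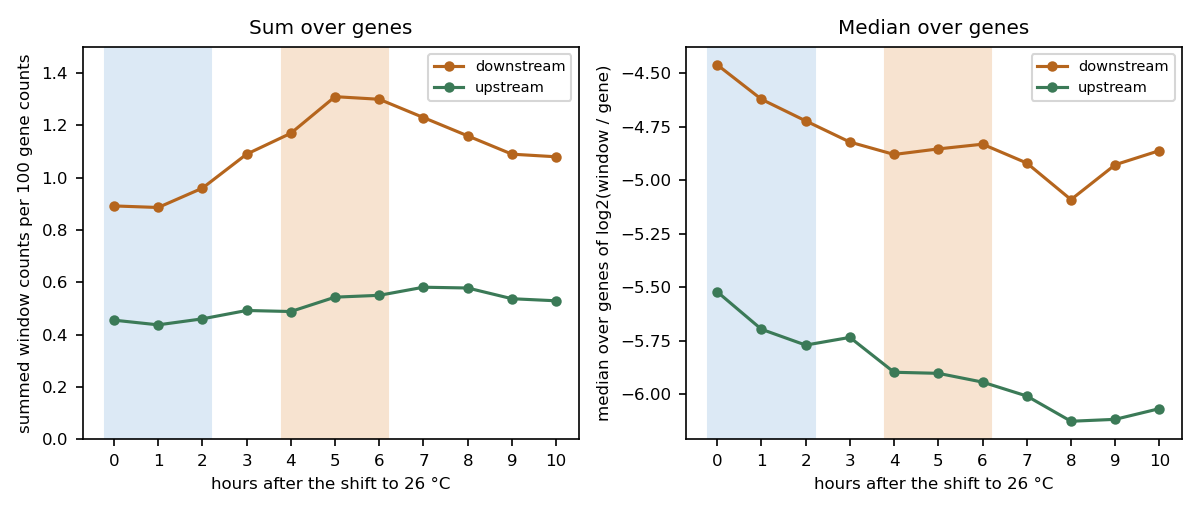
Summed window counts per 100 gene counts (left) and the median over genes of the log2 ratio of window to gene counts (right) by hour in wild type, 1 library per point, with the early window blue and the late window orange. The downstream sum is 0.886 to 0.96 early and 1.17 to 1.31 late, whereas the downstream median is −4.46 to −4.72 early and −4.83 to −4.88 late.

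The same hours were also compared within xrn-2(xe31), a temperature-sensitive xrn-2 strain grown and shifted in the same way. In that strain 3480 of 15732 genes rose (22.1%) and 2763 fell (17.6%). Of the wild-type rises tested in both, 2798 of 3238 (86.4%) rose in xe31 as well, which is 80.4% of the xe31 rises, and 2023 of 2593 wild-type falls (78%) fell, which is 73.2% of the xe31 falls. No gene that rose in one strain fell in the other in edgeR's test. All 6 furrow collagens, the 43 sperm genes, the 16 oocyte genes and the 10 hedgehog-related genes that rose or fell in wild type were called the same way in xe31, as were 58 of the 60 col genes and 70 of the 74 ribosomal protein genes. Of the muscle falls 8 of 16 were called in xe31, and of the neuropeptide falls 10 of 27.

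The difference between the strains was tested directly, as wild-type change minus xe31 change over 12 libraries. Of 16107 genes, 0 passed edgeR's test (0% called, smallest adjusted p 0.103). At an unadjusted p below 0.05, the signed log2 change was higher in wild type for 107 genes and lower for 201. The sign does not say which strain changed more. The median half-width of the unadjusted 95% interval was 0.766 on the log2 scale, so differences of less than about that size could not be seen at the median gene. To pass after adjustment over all genes tested, a difference had to be larger still. A fit with hour as a replicate block pairs the libraries of the same hour as the labels give it. Under it the signed change was higher in wild type for 245 genes and lower for 71. DESeq2 without the block called 3 and 20, and limma-voom 0 and 0, with 105 and 197 at an unadjusted p below 0.05.

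The genes named next were among the 5 largest differences in each direction under the block among those with at least 10 CPM in a window of either strain, and were chosen after their values were seen. Their CPM are scaled by TMM over the 12 libraries of both strains, so wild-type values differ slightly from those on the scale used above. wrt-4, a hedgehog-related gene highest at 4 h in wild type, stood at 7.78, 47 and 223 CPM early and 545, 208 and 79.2 CPM late in wild type and at 13.9, 63.8 and 241 CPM early and 325, 86.4 and 48.1 CPM late in xe31 (difference of log2 changes 1.34 ± 0.21, adjusted p = 0.039). It was higher in xe31 at each early hour and higher in wild type at each late hour. epic-1 stood at 556, 357 and 130.3 CPM early and 11.2, 76.6 and 319.6 CPM late in wild type and at 397, 234 and 92.2 CPM early and 31.8, 238 and 462 CPM late in xe31 (−1.74 ± 0.27, adjusted p = 0.039). Y22D7AL.9 stood at 81.3, 50.1 and 19.7 CPM early and 5.8, 6.14 and 6.92 CPM late in wild type and at 76.6, 42.5 and 18 CPM early and 15.5, 23.7 and 26.9 CPM late in xe31 (−1.94 ± 0.14, adjusted p = 0.0259). The late levels of both genes were higher in xe31 than in wild type at each hour. Under DESeq2, inx-7, an innexin of gap junctions, stood at 12, 10.6 and 10.9 CPM early and 11.1, 11 and 10.4 CPM late in wild type and at 9.06, 8.58 and 9.49 CPM early and 19.2, 21 and 24.9 CPM late in xe31 (−1.32 ± 0.17, adjusted p = 3.86e-10). The same tool called daf-7, the TGF-beta ligand of dauer signalling, at −1.20 ± 0.30 (adjusted p = 0.0473), with early means of 13.5 CPM in wild type and 13.7 CPM in xe31 (n = 3 each) and late levels of 9.54, 8.86 and 7.51 CPM in wild type and 15.4, 19.4 and 24.6 CPM in xe31.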

How the data were processed

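The authors deposited read counts per gene and, for the same libraries, read counts in a window upstream and a window downstream of each gene; the values are whole numbers and were used as raw counts. The genome build is ce10 per the submitters' processing notes. Which aligner and counting tool were used, whether strand was used, how reads matching several genes were treated and how long the windows are is not stated in the labels or headers. Columns were matched to samples by their names, and 33 other columns of per-sample values were not used. Gene symbols were found for 42362 of 44200 identifiers (95.8%).

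The libraries of 4, 5 and 6 h were compared with those of 0, 1 and 2 h by edgeR 4.0.16 in R 4.3.3: genes were kept by filterByExpr with a minimum count of 10, scaled by TMM, and tested by the quasi-likelihood test with Benjamini-Hochberg adjustment over all genes tested, at 0.05. Standard errors are the log2 change divided by the square root of F. Windows were tested against their gene in 1 model with library as a block, among windows with at least 20 counts. Summed window shares were compared by an exact permutation test. Wild type and xe31 were compared by an interaction term over 12 libraries, and the fit with hour as a block pairs libraries of the same labelled hour. limma 3.58.1 (voom) and DESeq2 1.42.0 were alternatives, with other scalings, filters, 6 h libraries and each library left out in turn. The fits were also run on simulated counts of independent libraries with no trend within a window. That run therefore cannot show how the fits behave with the trend in these data. Tables and figures used Python 3.11.15, pandas 2.3.3 and matplotlib 3.10.9.

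Genes are named by a rule. It takes the 15 largest rises and the 15 largest falls among called genes with at least 10 CPM and windows that did not overlap. For these genes the lack of overlap was set by the choice and adds no support. The rule also names up to 4 called members of each list with the largest change, every member of lists of at most 12 genes, xrn-2, and the 8 largest rises and 5 largest falls of each window. Genes named for a peak at 2 to 4 h, neighbours of windows and other list members fall outside it and were chosen after their values were seen. The windows of hours, the lists and the rule were chosen with earlier results of these data known. Intervals and floors (3 counts) cover counting error only.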

Additional observations from a re-analysis of the deposited data

How the results depend on the processing

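Of the results with alternatives, 3469 values of single genes and windows kept their side of the threshold, 565 lost significance, 34 gained it and 2 reversed. A change of sign was counted as reversed only where either fit passed the threshold. Sign changes between fits that both missed it are counted among the 3469. The 2 reversed values were ins-13 with the 6 h library of the second wild-type set (log2 change 0.17, adjusted p = 0.938) and the downstream window of C44B7.5 tested without gene counts (0.23). Leaving out 1 library at a time gave 0 to 3465 genes up and 0 to 2583 down, 94 to 408 downstream windows up and 125 to 500 down, and 65 to 240 upstream windows up and 92 to 302 down. With the second wild-type 6 h library 1228 genes fell, against 2598. Without gene counts 602 downstream windows rose and 285 fell, and 404 upstream windows rose; at a minimum of 50 window counts 296 downstream and 177 upstream windows fell. The median over genes of the log2 window share reversed the summed share, to −0.253 downstream and −0.252 upstream. DESeq2 called 4022 genes up and 3415 down. The causes were not tested.

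For the strain difference, hour as a replicate block gave 245 genes with a higher and 71 with a lower signed change in wild type, against 0 without the block. DESeq2 gave 3 and 20. Leaving out 1 library gave 0 higher and 0 to 2 lower, the calls appearing without the xe31 0 h library (1) and without the xe31 4 h library (2). Between the windows no block was fitted, since no label links an early to a late hour; with the hour centred within each window as a covariate 3411 genes rose and 2814 fell. With 3 libraries a window, no exact test of a single value can go below p = 0.1.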

Other observations

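A second wild-type 6 h library, made with another experiment of the series, was set beside the hourly libraries over the genes called between the windows. Its median absolute log2 difference was 0.165 to the 7 h library, 0.231 to the 8 h library and 0.326 to the 6 h library. The resequenced 6 h library was nearest to the 6 h library of the time course, at 0.137, with 0.225 to the 5 h and 0.306 to the 7 h library.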
